A study of Gallus gallus with 12 samples.

Results

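AXIN2, LGR5, DKK1, DKK3 and SFRP1 were examined as readouts and modulators of Wnt activity in otocysts of the chicken embryo. These 5 genes were chosen by name, with earlier results of these data known. Each was followed through 1 transcript of the 28756 in the abundance tables: ENSGALT00000078960.2 for AXIN2, ENSGALT00000016526.6 for LGR5, ENSGALT00000006047.6 for DKK1, ENSGALT00000008904.4 for DKK3 and ENSGALT00000089330.2 for SFRP1. The DKK3 transcript was the one whose TPM values in the otocysts equal those listed under that symbol among the Wnt genes of the study. All 5 transcripts passed the filter on low counts in every comparison, and their estimated counts were whole numbers in all 12 libraries.

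In the canonical pathway a Wnt ligand binds a Frizzled receptor, β-catenin escapes degradation and enters the nucleus, and TCF/LEF factors then use it to activate transcription. AXIN2 is a scaffold of the complex that degrades β-catenin and is itself a target of the pathway in many tissues, so that it acts as negative feedback. LGR5 is a receptor for R-spondins, which strengthen Wnt signalling, and is also a common target. The other 3 genes encode secreted proteins. DKK1 blocks the LRP co-receptors, SFRP1 can bind Wnt ligands outside the cell, and DKK3 is a divergent relative of DKK1 whose action on the pathway is less settled. In the otic cup, Wnt activity is known to be highest dorsally, near the hindbrain.

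Otic cups of White Leghorn embryos were electroporated in ovo at E2 on the right side only, and the otocysts were collected after 24 h, at embryonic day 3. In the Wnt LOF EP 24 h dataset (embryos 50, 51 and 52) the plasmid was a Tol2 construct encoding mCherry and an HA-tagged truncated Xenopus β-catenin that acts as a dominant negative (DNBCAT). In the Control EP dataset (embryos 60, 61 and 62) the Tol2 plasmid encoded mCherry alone. The left otocyst of every embryo was not transfected, and each otocyst was sequenced as its own library, which gave 12 libraries from 6 embryos and 3 pairs in each dataset. Transfection of an otocyst is mosaic, the embryos were those with the brightest and widest fluorescence, and whole otocysts were lysed, so a lower value can reflect fewer expressing cells or less RNA per cell, and these cannot be told apart.

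Total estimated counts ranged from 13157404 to 16097100 per library. The right library of embryo 51 stood apart. Its 10 most abundant transcripts took 12.4% of the counts, against 4.48% to 5.84% in the other 11 libraries. The median right-left ratio of 14037 well-counted transcripts in embryo 51 was -0.75 on the log2 scale in TPM, and 0.00 in CPM scaled by TMM, which sets libraries to a common level over most transcripts. What lowered the TPM of that library was not tested. Comparisons of 1 gene between otocysts are therefore given in CPM after TMM scaling, and TPM, which is per transcript length, is used to compare levels between genes. CTNNB1, the gene of β-catenin, had a right-left log2 fold change of -0.12 (SE 0.12) in Wnt LOF EP 24 h, and whether any reads of the Xenopus sequence of the construct were counted under this chicken transcript was not tested.

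In the untransfected left otocysts DKK3 and SFRP1 were the most abundant of the 5 transcripts and DKK1 the least. The mean TPM of the 6 left otocysts was 71.1 ± 3.26 (SD, n = 6) for DKK3, 59.0 ± 14.8 for SFRP1, 27.8 ± 6.12 for LGR5, 22.6 ± 5.77 for AXIN2 and 5.31 ± 1.89 for DKK1. DKK3 exceeded SFRP1 in 4 of the 6 left otocysts and in 10 of all 12, so the order of these neighbours did not hold in every embryo. SFRP1 exceeded LGR5, LGR5 exceeded AXIN2 and AXIN2 exceeded DKK1 within each of the 12 otocysts. The ranges of SFRP1 and LGR5 over the left otocysts nevertheless overlapped narrowly, those of LGR5 and AXIN2 overlapped widely, and only those of AXIN2 and DKK1 did not overlap. LGR5 was a median of 1.22 times AXIN2 in TPM.

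**Figure D1:**
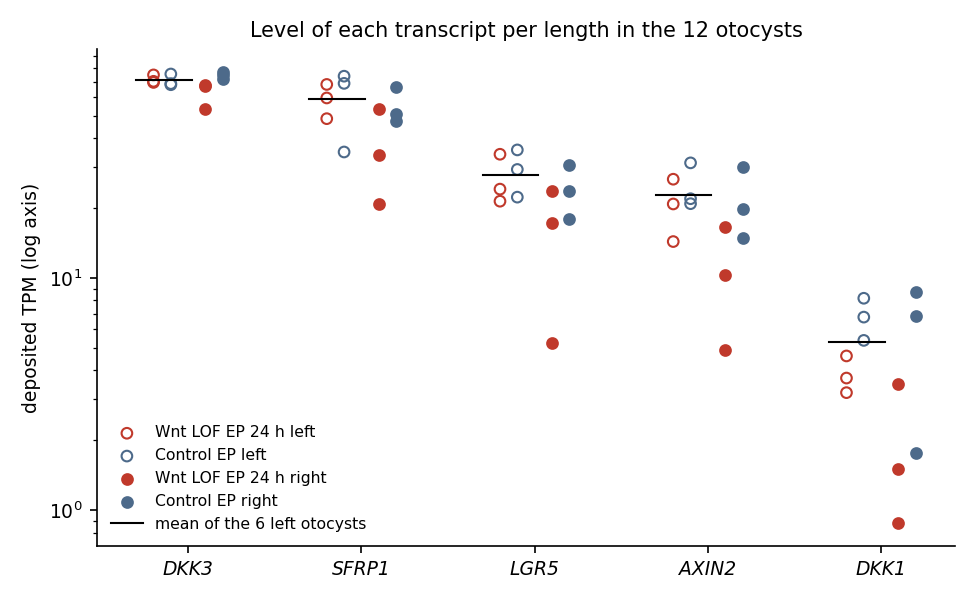
Deposited TPM (log axis) of the 5 transcripts in each of the 12 otocysts, with open circles for left and filled circles for right otocysts, red for Wnt LOF EP 24 h and blue for Control EP. The black line is the mean of the 6 left otocysts, which falls from 71.1 for DKK3 to 5.31 for DKK1, and the lowest right values of AXIN2, LGR5 and SFRP1 come from embryo 51.

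The steadiness of the 5 transcripts between untransfected otocysts also differed. The coefficient of variation of CPM over the 6 left otocysts was 12% for DKK3, 15.9% for LGR5, 19.4% for AXIN2, 19.9% for SFRP1 and 35.0% for DKK1. DKK1 rested on 5 to 47 estimated counts per library, where counting error alone is large, whereas the other transcripts had at least 187. A 95% exact Poisson interval for the lowest DKK1 count, 5 in the right otocyst of embryo 50, runs from 1.62 to 11.7 counts. Without molecular identifiers, this and the following intervals cover counting error only.

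AXIN2, the intracellular feedback gene, was lower in the right otocyst of all 3 DNBCAT embryos. Its CPM was 35.5 on the left and 19.0 on the right in embryo 50, 27.8 and 15.9 in embryo 51, and 44.3 and 27.7 in embryo 52. The highest right value (embryo 52) lay just under the lowest left value (embryo 51), so the sides did not overlap in CPM. In TPM they overlapped, with 16.5 on the right in embryo 52 and 14.3 on the left in embryo 51. In Control EP the CPM was 49.4 on the left and 47.4 on the right in embryo 60, 36.4 and 33.6 in embryo 61, and 38.2 and 28.5 in embryo 62. Here the right otocyst was also the lower one in every embryo, but the ranges of the sides overlapped.

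As a ratio of right to left, AXIN2 stood at 0.534, 0.572 and 0.626 in embryos 50, 51 and 52. The 95% counting intervals of these 3 values overlapped, and ran from -1.12 to -0.69, from -1.07 to -0.55 and from -0.86 to -0.50 on the log2 scale. The ratios were 0.961, 0.925 and 0.745 in embryos 60, 61 and 62, and the intervals of embryos 60 and 61 held equal levels, while that of embryo 62 (-0.61 to -0.24 on the log2 scale) did not. The mean log2 ratio was -0.80 ± 0.11 (SD, n = 3) after DNBCAT and -0.20 ± 0.20 after mCherry.

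In edgeR's quasi-likelihood test AXIN2 had a log2 fold change of -0.79 (SE 0.11, unadjusted p = 0.00163) in Wnt LOF EP 24 h, the rank 23 of 19408 transcripts tested, with an adjusted p of 0.718. In Control EP it was -0.19 (SE 0.09, unadjusted p = 0.107, adjusted p = 0.960 by edgeR). Between the datasets the fold changes of AXIN2 differed by -0.60 (SE 0.14, unadjusted p = 0.00496, adjusted p = 0.935 by edgeR). AXIN2 therefore did not pass an adjusted p of 0.05 in any of the 3 tests. With the DESeq2 Wald test its adjusted p in Wnt LOF EP 24 h was 3.65e-05 and that of the difference 0.121. AXIN2 and SFRP1 are on the list of genes that the study itself called from these libraries, so their direction here is not independent evidence.

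LGR5, the R-spondin receptor, was likewise lower on the right in all 3 DNBCAT embryos, but by unequal amounts. Its CPM was 40.2 on the left and 30.9 on the right in embryo 50, 40.5 and 16.7 in embryo 51, and 55.4 and 39.0 in embryo 52. The sides did not overlap in CPM. In Control EP it was 54.9 on the left and 47.4 on the right in embryo 60, 47.5 and 39.2 in embryo 61, and 39.8 and 33.6 in embryo 62.

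The right otocyst was thus the lower one in all 6 embryos. The right-left ratio of LGR5 was 0.864, 0.824 and 0.844 in the mCherry embryos, and the counting interval of each lay below equal levels. It was 0.768 and 0.703 in embryos 50 and 52 and 0.411 in embryo 51, whose interval (-1.53 to -1.04 on the log2 scale) did not meet those of the other DNBCAT embryos (-0.56 to -0.20 and -0.66 to -0.35). The edgeR log2 fold change was -0.71 (SE 0.22, unadjusted p = 0.0273, adjusted p = 0.718) in Wnt LOF EP 24 h and -0.24 (SE 0.05, unadjusted p = 0.00914, adjusted p = 0.960) in Control EP. Between the datasets the fold changes of LGR5 differed by -0.46 (SE 0.24, unadjusted p = 0.0952, adjusted p = 0.935 by edgeR). Embryo 51 decided much of it. Without that embryo the fold change was -0.44 in Wnt LOF EP 24 h and the difference between the datasets -0.20.

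SFRP1, which encodes a secreted Wnt-binding protein, was lower on the right in all 3 DNBCAT embryos and varied in direction among the mCherry embryos. Its CPM was 142 on the left and 86.3 on the right in embryo 50, 131 and 93.6 in embryo 51, and 158 and 126 in embryo 52. These sides did not overlap in CPM. In Control EP it was 163 on the left and 146 on the right in embryo 60, 159 and 121 in embryo 61, and 88.9 and 127 in embryo 62. The left otocyst of embryo 62 was the lowest of the 6 left otocysts, and embryo 62 was the only embryo in which SFRP1 was higher on the right.

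The right-left ratio of SFRP1 was 0.609, 0.714 and 0.796 in embryos 50, 51 and 52, and 0.898, 0.757 and 1.42 in embryos 60, 61 and 62. With 1102 to 2425 counts behind each value, none of the 6 counting intervals held equal levels. The ratio of mCherry embryo 61 (-0.40 on the log2 scale) lay below that of DNBCAT embryo 52 (-0.33), so the datasets overlapped. The edgeR log2 fold change was -0.51 (SE 0.10, unadjusted p = 0.00648, adjusted p = 0.718) in Wnt LOF EP 24 h and -0.02 (SE 0.19, unadjusted p = 0.933, adjusted p = 0.997) in Control EP. The difference was -0.49 (SE 0.24, unadjusted p = 0.0886, adjusted p = 0.935 by edgeR). Without embryo 62 the fold change in Control EP was -0.28 and the difference fell in size to -0.22. The DESeq2 Wald test gave SFRP1 an adjusted p of 0.0021 in Wnt LOF EP 24 h and 0.627 for the difference.

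**Figure D2:**
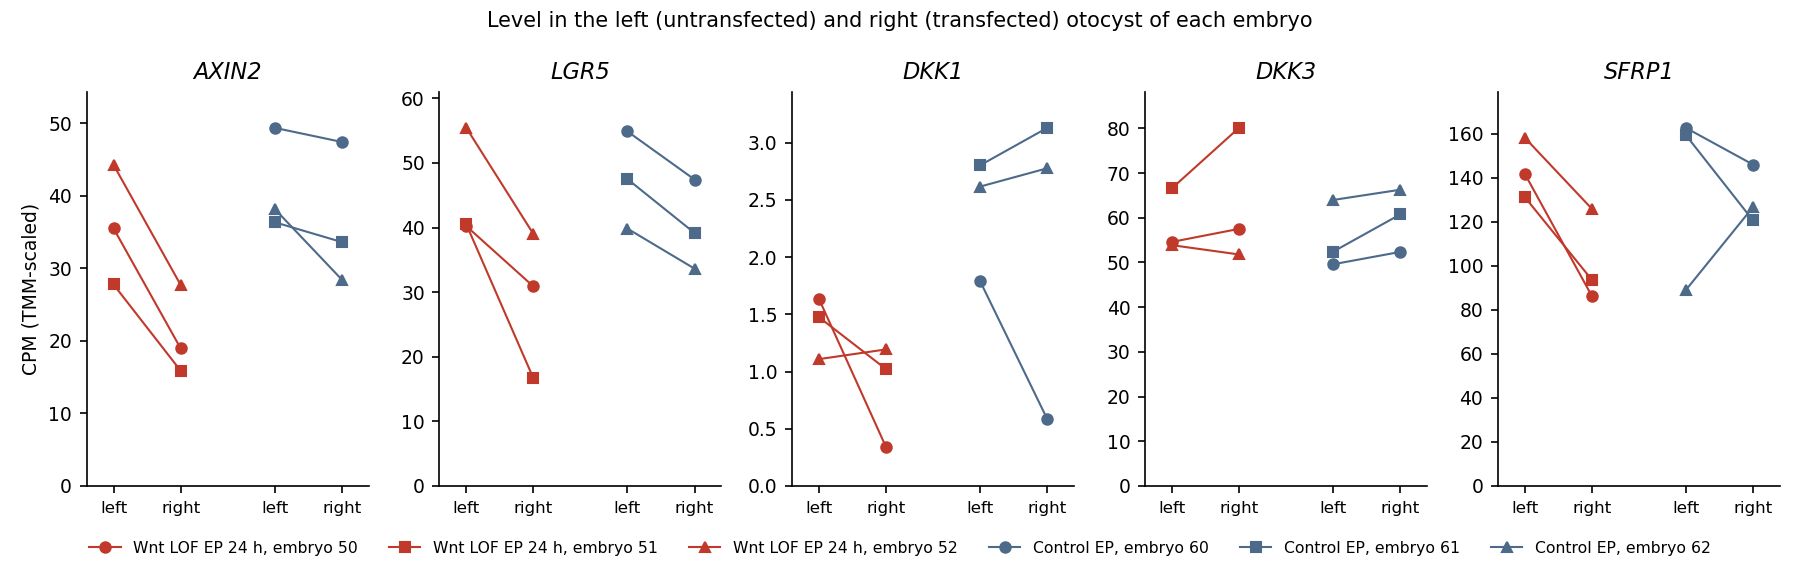
CPM after TMM scaling of each transcript in the left and right otocyst of the same embryo, joined by a line, red for the 3 DNBCAT embryos and blue for the 3 mCherry embryos, with an axis from 0 for each gene. All 3 red lines fall for AXIN2, LGR5 and SFRP1, the blue lines of LGR5 fall less, and the blue line of SFRP1 in embryo 62 rises from 88.9 to 127.

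DKK1, the antagonist that binds LRP co-receptors, gave no stable ratio. Its counts on the left and right were 25 and 5 in embryo 50, 19 and 12 in embryo 51, and 17 and 18 in embryo 52. In Control EP they were 26 and 9 in embryo 60, 39 and 47 in embryo 61, and 40 and 44 in embryo 62. Thus 1 embryo of each dataset had clearly fewer counts on the right, and the other 4 had counting intervals that held equal levels.

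The log2 ratio of DKK1 was -2.28 in embryo 50 (counting interval -4.02 to -0.87) and -1.62 in embryo 60 (-2.89 to -0.48). The edgeR log2 fold change was -0.84 (SE 0.72, adjusted p = 0.763) in Wnt LOF EP 24 h and -0.40 (SE 0.51, adjusted p = 0.961) in Control EP. Without embryo 50 the value in Wnt LOF EP 24 h was -0.21 and the difference between the datasets turned from -0.43 to 0.20. Without embryo 60 the value in Control EP turned to 0.13. A right-left difference of DKK1 shared by the embryos of a dataset was not detectable at this depth.

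DKK3 had the highest mean TPM and the lowest coefficient of variation of the 5 transcripts in the left otocysts. It was close to equal on the sides. Its CPM was 54.6 on the left and 57.5 on the right in embryo 50, 66.6 and 80.1 in embryo 51, and 53.9 and 51.8 in embryo 52. In Control EP it was 49.6 and 52.4 in embryo 60, 52.4 and 60.7 in embryo 61, and 64.0 and 66.3 in embryo 62. DKK3 was higher on the right in 5 of the 6 embryos, and the counting interval lay above equal levels in embryos 51 and 61.

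The edgeR log2 fold change of DKK3 was 0.10 (SE 0.10, adjusted p = 0.788) in Wnt LOF EP 24 h and 0.12 (SE 0.06, adjusted p = 0.960) in Control EP. For the difference between the datasets DKK3 had -0.02 (SE 0.11) and an adjusted p of 0.995 in edgeR. The sign in Wnt LOF EP 24 h depended on the scale. In TPM the log2 ratio was -0.03, -0.48 and -0.06 in embryos 50, 51 and 52, with a mean of -0.19. Relative to the median of all transcripts in embryo 51, the TPM ratio of DKK3 there was 0.26, close to its ratio of 0.27 in CPM.

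**Figure D3:**
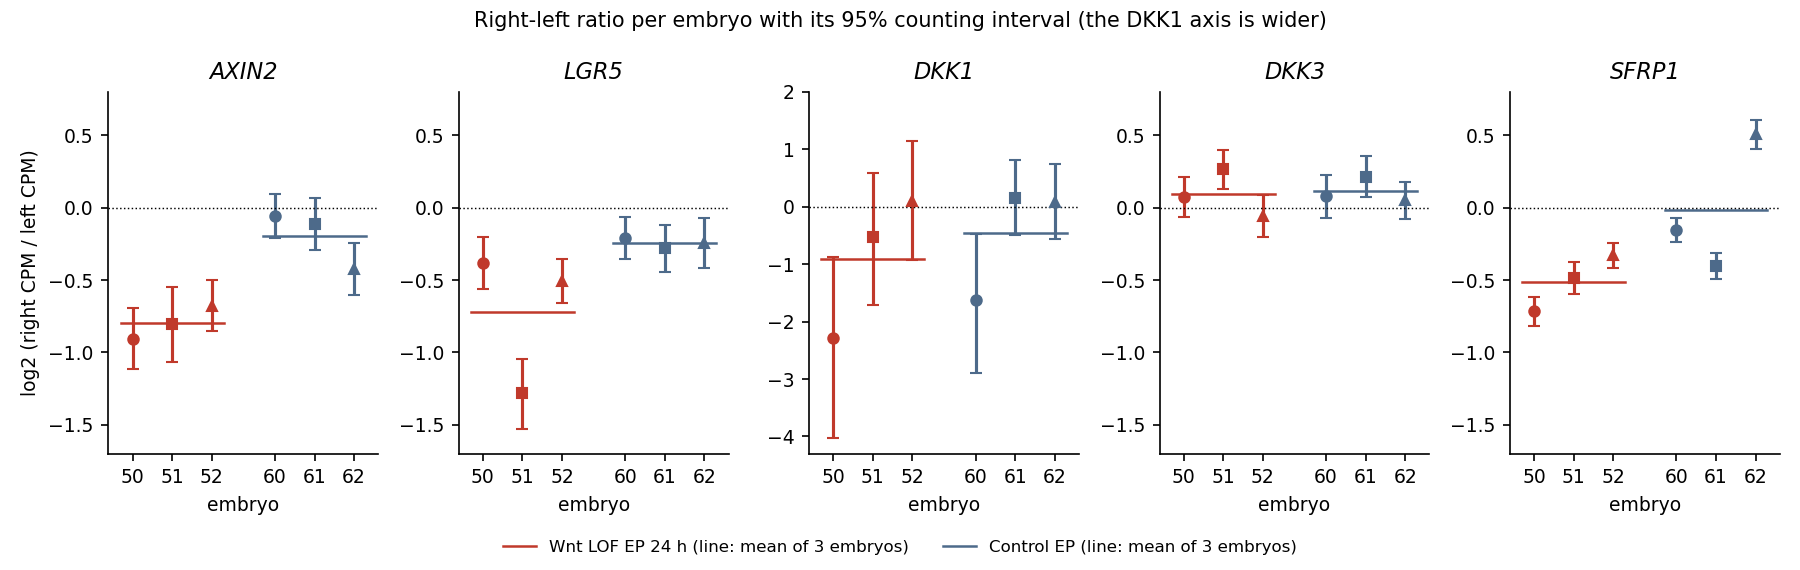
The log2 ratio of right to left CPM of each transcript in each embryo, with 95% Clopper-Pearson counting intervals and a line at the mean of the 3 embryos of a dataset, red for DNBCAT and blue for mCherry. For AXIN2 the DNBCAT ratios lie between -0.91 and -0.68 and the mCherry ratios between -0.42 and -0.06. LGR5 of embryo 51 lies apart at -1.28, and the axis of DKK1 is wider than the others.

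Over the 5 genes, the number called at an adjusted p under 0.05 by edgeR was 0 in Wnt LOF EP 24 h, Control EP, the difference between them and the comparison of left otocysts. This was also the share of all transcripts tested (0%, 0%, 0% and 0%). At an unadjusted p under 0.05 edgeR had 1204, 740, 842 and 454 transcripts in these comparisons, and the DESeq2 Wald test called 456, 84, 64 and 43 at an adjusted p under 0.05. With an unadjusted p under 0.05 and a lower level on the right, edgeR held 3 of the 5 genes in Wnt LOF EP 24 h (AXIN2, LGR5 and SFRP1), against 2.74% of all transcripts. It held 1 of the 5 in Control EP (LGR5), against 1.75%. For the difference it held 1 of the 5 (AXIN2), against 2.21%. The DESeq2 Wald test called 2 of the 5 lower in Wnt LOF EP 24 h (AXIN2 and SFRP1), against 0.855% of all transcripts. The study had already called AXIN2 and SFRP1 from these libraries, so these counts are not independent evidence.

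The direction was counted in the same way. AXIN2, LGR5 and SFRP1 were lower on the right in all 3 DNBCAT embryos, as were 17% of all transcripts tested. They were also the 3 genes whose right CPM all lay below the left CPM, as was so for 5.13% of transcripts. For AXIN2 this margin was narrow, and in TPM the sides of each of these 3 genes overlapped in the DNBCAT embryos. In Control EP, AXIN2 and LGR5 were lower on the right in all 3 embryos, against 13.5% of transcripts, and none of the 5 genes had sides that did not overlap, against 2.72%. AXIN2 and LGR5 were thus lower on the right in all 6 embryos, against 3.44% of transcripts. They were also the 2 genes whose 3 DNBCAT ratios all lay below the 3 mCherry ratios, against 5.94%. For AXIN2 the counting interval of embryo 52 (-0.86 to -0.50) met that of embryo 62 (-0.61 to -0.24). For LGR5 that of embryo 50 (-0.56 to -0.20) met those of all 3 mCherry embryos. The separation of the datasets was thus not resolved beyond counting error.

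An exact permutation test compared the 3 DNBCAT ratios with the 3 mCherry ratios of each gene. With 20 assignments this exact permutation test cannot go below p = 0.1, so it could not pass 0.05. AXIN2 (-0.80 against -0.20) and LGR5 (-0.72 against -0.24) reached that smallest value in the two-sided exact test, with p = 0.25 after adjustment over the 5 genes. The exact p was 0.2 for SFRP1 (-0.51 against -0.02), 0.6 for DKK1 (-0.90 against -0.46) and 0.9 for DKK3 (0.10 against 0.11).

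Whether the readouts agreed was first asked within the DNBCAT embryos. In CPM, AXIN2, SFRP1 and DKK1 placed the 3 embryos in the same order, with the lowest ratio in embryo 50 and the highest in embryo 52. The ratios of DKK1 rested on 5 to 25 counts, and its intervals held equal levels in embryos 51 and 52. For AXIN2 and DKK1 the counting intervals of the 3 embryos overlapped, so their order was not resolved beyond counting error. For SFRP1 the interval of embryo 50 (-0.82 to -0.62) lay below those of embryos 51 (-0.60 to -0.38) and 52 (-0.42 to -0.24). The intervals of SFRP1 in embryos 51 and 52 overlapped, so only the place of embryo 50 was resolved, and only if the TMM scaling is taken as exact. In TPM embryo 51 was lower than embryo 50 for SFRP1 (-1.23 against -0.82) and for AXIN2 (-1.55 against -1.01). The order of these 2 embryos thus depended on the scale. LGR5 placed embryo 51 lowest and embryo 50 highest, and DKK3 was highest in embryo 51. With 3 embryos this order is a description and has no test. In the mCherry embryos AXIN2 had its lowest ratio in embryo 62 (-0.42), the same embryo in which SFRP1 had its highest (0.51). LGR5 in that embryo was -0.24, in the middle of its narrow range. The point values of the AXIN2 and LGR5 ratios separated the datasets, so no correlation over the 6 embryos is given for pairs with either gene.

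Among the 3 pairs left, the ratios of DKK1 and SFRP1 had Pearson r = 0.46 (exact permutation p = 0.374, adjusted 0.902) and Spearman rho = 0.31 (p = 0.564, adjusted 0.846). Those of DKK3 and SFRP1 had r = -0.29 (exact permutation p = 0.601, adjusted 0.902) and rho = -0.43 (p = 0.419, adjusted 0.846). Those of DKK1 and DKK3 had r = 0.03 (exact permutation p = 0.979, adjusted 0.979) and rho = -0.09 (p = 0.919, adjusted 0.919). Without the 2 embryos farthest from the median of the first gene the r values became 0.38, 0.04 and -0.61. None of these pairs was shown to move together.

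**Figure D4:**
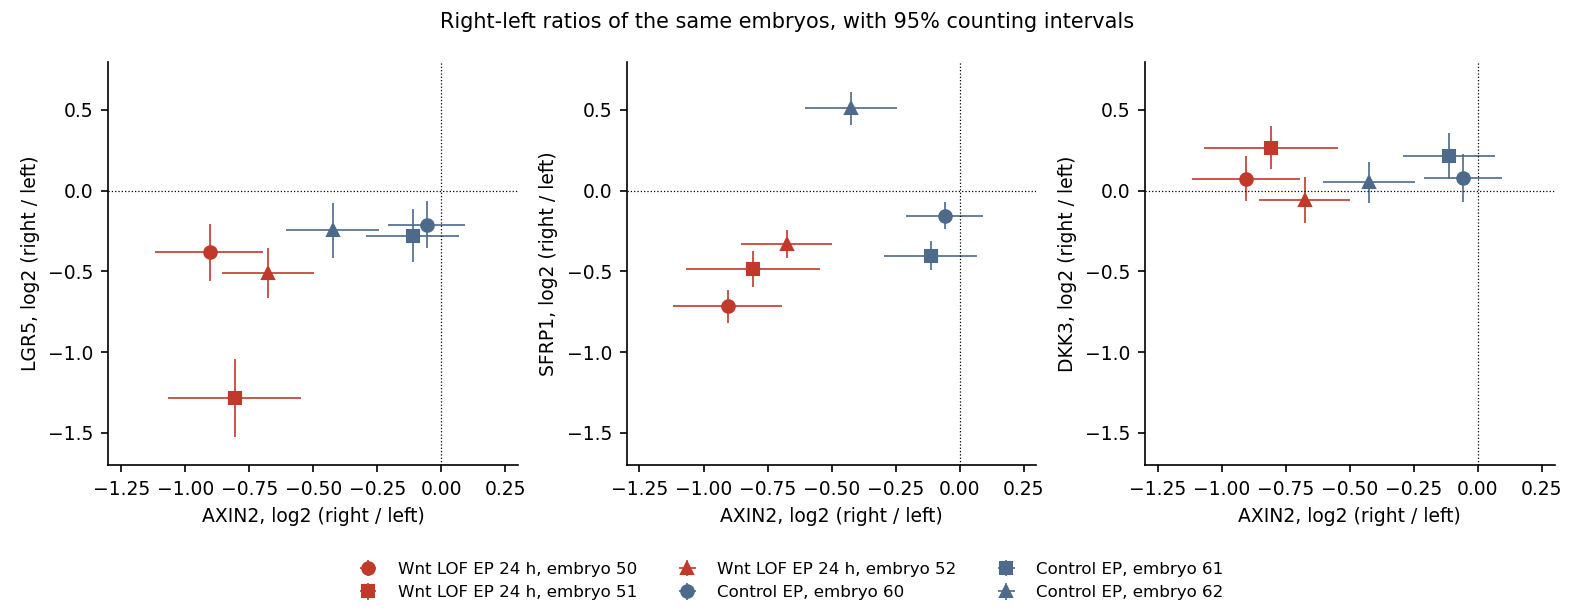
The log2 right-left ratio of LGR5, SFRP1 and DKK3 (vertical axes) against that of AXIN2 (horizontal axes) in each of the 6 embryos, with 95% counting intervals, red for DNBCAT and blue for mCherry. The DNBCAT embryos lie to the left of the mCherry embryos in each panel. SFRP1 of embryo 62 (0.51) stands above all others, and the DKK3 ratios stay between -0.06 and 0.27.

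Agreement was then examined in the 6 left otocysts, where no construct was introduced. DKK1 was left out because its left CPM was at most 1.63 in the DNBCAT embryos and at least 1.79 in the mCherry embryos, so its values separated by dataset. The nearest of these rested on 25 and 26 counts, whose Poisson intervals (16.2 to 36.9 and 17.0 to 38.1) overlapped. Pairs with DKK1 still entered the adjustment over 10 pairs. AXIN2 and LGR5 had r = 0.78 over the 6 left otocysts (exact permutation p = 0.0722, adjusted 0.215 over 10 pairs) and rho = 0.54 (p = 0.297, adjusted 0.495). Without the 2 embryos farthest from the median of AXIN2 the r was 0.78. LGR5 and SFRP1 had r = 0.70 (exact permutation p = 0.0861, adjusted 0.215) and rho = 0.77 (p = 0.103, adjusted 0.438), with r = 0.64 without the 2 farthest embryos.

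AXIN2 and SFRP1 were less alike, with r = 0.30 (exact permutation p = 0.524, adjusted 0.655), rho = 0.54 (p = 0.297, adjusted 0.495) and r = 0.15 without the 2 farthest embryos. DKK3 went against the other 3 genes. It had r = -0.76 with SFRP1 (exact permutation p = 0.0458, adjusted 0.215) and rho = -0.94 (p = 0.0167, adjusted 0.167), and r = -0.73 without the 2 farthest embryos. It had r = -0.75 with LGR5 (exact permutation p = 0.111, adjusted 0.222) and rho = -0.66 (p = 0.175, adjusted 0.438), and r = -0.67 without the 2 farthest. With AXIN2 it had r = -0.75 (exact permutation p = 0.0792, adjusted 0.215) and rho = -0.71 (p = 0.136, adjusted 0.438), but r = -0.02 without the 2 farthest embryos, so that relation rests on those 2 embryos. No pair passed an adjusted p of 0.05 in CPM. On log2(TPM + 0.1) the adjusted p of r was 0.0278 for AXIN2 and LGR5 (r = 0.89, and 0.90 without the 2 farthest embryos) and 0.0347 for DKK3 and SFRP1 (r = -0.92, and -0.56 without the 2 farthest). The adjusted permutation p of rho was 0.0833 for both pairs, which does not pass.

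The left otocysts of the DNBCAT embryos were also compared with those of the mCherry embryos, since these differ in no construct of their own. The log2 difference was -0.21 (SE 0.21) for AXIN2, -0.07 (SE 0.18) for LGR5, 0.07 (SE 0.14) for DKK3 and 0.06 (SE 0.24) for SFRP1 in edgeR, with unadjusted p from 0.345 to 0.806. For DKK1 it was -0.78 (SE 0.40, unadjusted p = 0.0958 by edgeR), and none of the 5 passed an adjusted p of 0.05. DKK1 was the 1 gene of the 5 whose DNBCAT left otocysts all lay below the mCherry left otocysts, against 3.99% of all transcripts. Its left counts were 17 to 25 and 26 to 40.

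Other genes of the pathway were described from lists of feedback genes, antagonists, receptors, ligands, effectors and common targets. Only 824 transcripts carry a symbol, and these symbols come from tables of the study that hold, beside a panel of Wnt genes, transcripts it called changed, so that the matched genes are not a neutral sample of each list. None of the listed genes passed an adjusted p of 0.05 in edgeR. Of 18 genes listed for intracellular feedback and receptor turnover, 9 were matched, AXIN2 and LGR5 among them. Of these 9, 5 had an unadjusted p under 0.05 and were lower in the right otocysts after DNBCAT, and 0 were higher. Of all transcripts, 2.74% were lower in this way. In Control EP 3 of the 9 were so (LGR5, APCDD1 and LGR4), beside 1.75%, and in the difference 2 of the 9 (AXIN2 and BAMBI), beside 2.21%. The median log2 fold change of the 9 was -0.45, beside -0.02 over all transcripts tested, and -0.11 beside 0.00 in Control EP. Without embryo 51, an alternative chosen after seeing the data, 4 of the 9 had such a p and the median was -0.28. Of all 19904 transcripts tested there, 394 had such a p and were lower.

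Beside AXIN2 and LGR5, these feedback genes were APCDD1, BAMBI and LGR4. APCDD1, a membrane inhibitor of Wnt signalling, had a log2 fold change of -0.78 (SE 0.23) in Wnt LOF EP 24 h and -0.24 (SE 0.06) in Control EP. BAMBI, a pseudoreceptor of the TGF-β family, had -0.66 (SE 0.10) and -0.20 (SE 0.09). LGR4, the relative of LGR5, had -0.45 (SE 0.15) and -0.11 (SE 0.04). In the difference between the datasets the unadjusted p of edgeR was 0.0184 for BAMBI, 0.0821 for APCDD1 and 0.0789 for LGR4. AXIN1, the constitutive counterpart of AXIN2, had -0.13 (SE 0.21) in Wnt LOF EP 24 h.

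Of 16 listed secreted antagonists 6 were matched, with DKK1, DKK3 and SFRP1 among them. NOTUM was counted both here and in the feedback list. Of these 6, SFRP1 was the only one with an unadjusted p under 0.05 in Wnt LOF EP 24 h. It was lower, beside 2.74% of all transcripts lower in this way. Over these 6 the median fold change was -0.28 on the log2 scale there and -0.07 in Control EP. SFRP2, a close relative of SFRP1, had -0.18 (SE 0.12) in Wnt LOF EP 24 h.

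Of 9 Wnt ligands, 3 had an unadjusted p under 0.05 and were lower in transfected DNBCAT otocysts, beside 2.74% of all transcripts, with a median of -0.68 over the 9. In Control EP 2 of the 9 were so (WNT2B and WNT11), beside 1.75% of all transcripts, with a median of -0.15. For the difference 2 of the 9 were so (WNT2B and WNT4), beside 2.21%. WNT2B had -1.23 (SE 0.11, unadjusted p = 0.000214 by edgeR), WNT11 -1.04 (SE 0.33) and WNT5A -0.46 (SE 0.13). In Control EP these had -0.23 (SE 0.08), -0.68 (SE 0.24) and -0.16 (SE 0.07). The difference of WNT11 was -0.36 (SE 0.37, unadjusted p = 0.367 by edgeR). WNT2B, which the study also called from these libraries, had a mean CPM of 45.5 ± 1.61 (SD, n = 3) on the left and 19.3 ± 0.90 on the right after DNBCAT, and of 50.3 ± 2.41 and 42.9 ± 5.10 after mCherry. WNT6 had the most extreme fitted value (-2.48, SE 1.06), on 0 to 54 counts.

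The 8 Frizzled receptors and the 5 effectors had no member with an unadjusted p under 0.05 in Wnt LOF EP 24 h. Their medians were -0.16 and -0.06, and the members farthest from 0 were FZD6 (-0.29, SE 0.14), FZD3 (-0.26, SE 0.13), TCF7L1 (-0.33, SE 0.24) and CTNNB1. Of 6 targets of the pathway known from other tissues, MSX1 (-0.76, SE 0.10), MSX2 (-0.70, SE 0.09) and SOX9 (-0.33, SE 0.11) had an unadjusted p under 0.05 and were lower, beside 2.74% of all transcripts. The study also called MSX1 and MSX2 from these libraries, so their direction here is not independent evidence. The homeobox genes MSX1 and MSX2 had 0.07 (SE 0.12) and -0.17 (SE 0.10) in Control EP, and SOX9 had -0.13 (SE 0.10) with a difference of -0.20 (SE 0.14). For the difference 2 of the 6 (MSX1 and MSX2) had an unadjusted p under 0.05 and were lower, beside 2.21%. Their differences were -0.82 (SE 0.17, unadjusted p = 0.00227 by edgeR) and -0.53 (SE 0.13, unadjusted p = 0.00595 by edgeR), each with an adjusted p of 0.935. CCND1, a cyclin gene, had 0.20 (SE 0.08, unadjusted p = 0.0541 by edgeR) in Wnt LOF EP 24 h.

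**Figure D5:**
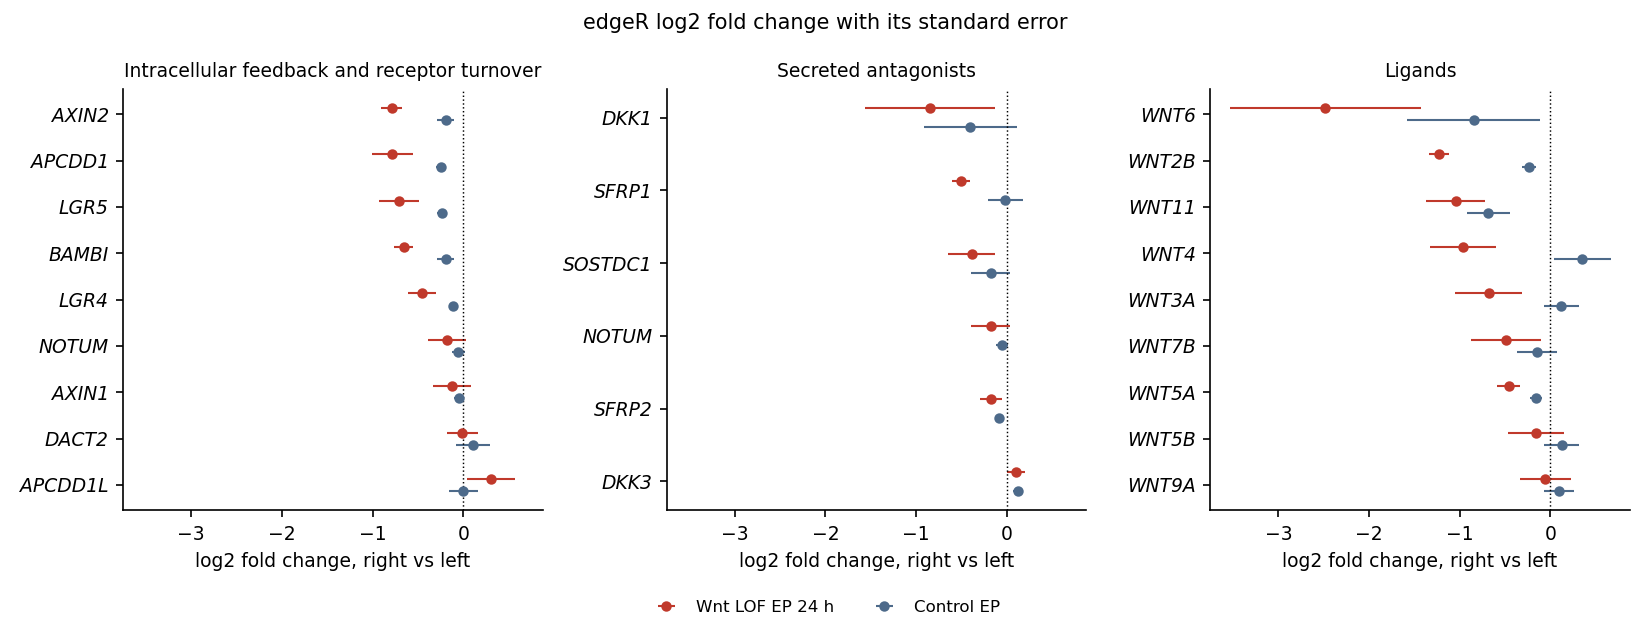
The edgeR log2 fold change of right against left with its standard error (bars) for the matched feedback genes, secreted antagonists and ligands, red for Wnt LOF EP 24 h and blue for Control EP. AXIN2, APCDD1, LGR5 and BAMBI lie between -0.79 and -0.66 in red, DKK3 lies at 0.10, and the bar of DKK1 is far wider than that of SFRP1.

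Markers of the cell types in the sample were read beside these values, as summed CPM after TMM scaling. A sum mostly follows its most abundant gene. In left DNBCAT otocysts the mean CPM was 81.3 for NEUROD1 and 14.2 for DLL1. It was 521 for SOX10 and at most 164 for the other epithelial markers. For 6 matched of 8 otic epithelial markers the sum was 753 to 946 on the left and 558 to 919 on the right in DNBCAT embryos, and 977 to 1059 and 882 to 1021 in mCherry embryos. The lowest sum, 558, was that of the right otocyst of embryo 51, whose log2 right-left ratio was -0.43, against 0.01 in embryo 50 and -0.23 in embryo 52. The ratios of the single epithelial markers ran from -0.50 (CDH1) to 0.21 (TBX2) in embryo 50. In embryos 60, 61 and 62 the ratio of this sum was 0.01, -0.07 and -0.15. For 2 of 4 neuroblast markers it was 92.0 to 102 and 68.0 to 73.0 in DNBCAT embryos, and 100.5 to 111 and 74.9 to 111 in mCherry embryos. For 3 of 8 mesenchymal markers (COL1A2, CDH11 and SNAI1) it was 305 to 474 and 284 to 441 in DNBCAT embryos, and 301 to 425 and 354 to 414 in mCherry embryos. No matched marker was at 0 in any library.

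Of the epithelial list, CDH1 (-0.67, SE 0.19) and SOX9 had an unadjusted p under 0.05 and were lower in edgeR's test of Wnt LOF EP 24 h. This was so for 2.74% of all transcripts. SOX9 and, of the mesenchymal list, SNAI1 were also counted among the targets known from other tissues. For the difference between the datasets it was so for 1 of the 6 (CDH1), beside 2.21%. CDH1 had -0.06 (SE 0.07) in Control EP and a difference of -0.60 (SE 0.21, unadjusted p = 0.0274, adjusted p = 0.935 by edgeR). Its log2 right-left ratio was -0.50, -1.15 and -0.40 in embryos 50, 51 and 52. In embryos 60, 61 and 62 the CDH1 ratio was 0.09, -0.18 and -0.13. The other 4 epithelial markers lay between -0.28 (DLX5) and 0.14 (TBX2). Of the neuroblast list NEUROD1 had -0.48 (SE 0.10) there and -0.25 (SE 0.11) in Control EP, with a difference of -0.23 (SE 0.16), and DLL1 had -0.12 (SE 0.18) in Wnt LOF EP 24 h. The 3 mesenchymal markers lay between -0.26 and -0.05 in Wnt LOF EP 24 h, but the embryos differed in direction. The log2 right-left ratio of their summed CPM was -0.74, -0.23 and 0.53 in embryos 50, 51 and 52. In embryos 60, 61 and 62 it was -0.04, -0.16 and 0.44. For the summed neuroblast markers the ratio was -0.49, -0.45 and -0.33 in embryos 50, 51 and 52, and -0.25, 0.01 and -0.46 in embryos 60, 61 and 62. DLL1 alone had -0.08, 0.11 and -0.40 in embryos 50, 51 and 52, so the sum there mostly gave NEUROD1. The part of these markers in the values of AXIN2, LGR5 and SFRP1 was not tested.

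The transcripts most alike in pattern were sought among 804 transcripts with a symbol, by Pearson's r of log2 CPM over the 12 otocysts. The otocysts come in pairs from 6 embryos and pool left and right sides and both datasets, so these values are a description. A difference between sides or datasets that transcripts share can raise r by itself. The symbols come from tables that also hold transcripts the study called changed, so the candidates are not a neutral sample. Likeness within a side of a dataset was not tested. DACH1 (r = 0.96), APCDD1 (0.95) and GREB1 (0.94) were closest to AXIN2. P4HA1 (0.97), DISP1 (0.95) and STOX2 (0.94) were closest to LGR5. The closest to SFRP1 were ANO5 (0.88), FN1 (0.87) and NRP1 (0.84), and those closest to DKK1 were PPP1R17 (0.83), BPIFB2 (0.81) and NHLH1 (0.78). DKK3 was closest to RPS24 (0.96), EEF1B2 (0.96) and RPS25 (0.96), which encode ribosomal proteins and a translation elongation factor. Without embryo 51 the lowest of these 15 values was 0.82, for DKK1 and BPIFB2. No gene was among the closest of more than 1 of the 5.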

How the data were processed

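Each otocyst was prepared by the authors with a SMART-Seq low-input kit and 10 PCR cycles and sequenced as paired ends. They quantified transcripts with kallisto against the chicken genome build GRCg6a (build and tool from the submitters' notes and the study's methods) and deposited, per transcript, an estimated count, which is not normalized, and its TPM, a value corrected for length and depth. The deposited lengths were not tested. Estimated counts were rounded and tested with edgeR 4.0.16 (R 4.3.3; TMM, embryo as block, Benjamini-Hochberg over all transcripts); standard errors are the fold change over the root of F. Transcripts with at least 5 counts in at least 47% of libraries were kept. DESeq2 1.42.0 and limma 3.58.1 served as alternatives, with other scalings, pseudocounts of 1 and 0.1, and filters. Exact tests used scipy 1.17.1. Tests were two-sided. The edgeR, DESeq2 and limma fits were also run on simulated counts that held no differences between embryos, and the exact tests were not.

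The block rests on left and right otocysts of the same embryo. Their deviations from the group means correlated with r = 0.09, 0.27 and 0.24 (embryos 50, 51, 52) and 0.34, 0.13 and 0.25 (60, 61, 62). The main right-left p-values within a dataset rest on 3 embryos. Those of the difference, the left otocysts, the exact permutation tests and the correlations rest on the embryos of both datasets.

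The genes and lists were chosen with earlier results of these data known. Pathway genes were named where the unadjusted p was under 0.05 in Wnt LOF EP 24 h or for the 2 largest changes of a list, and the 3 transcripts most alike were named for each gene. AXIN1, SFRP2 and CCND1 were named outside this rule, and WNT4 for its unadjusted p in the difference between the datasets. Genes outside the study's symbol tables were not analysed here.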

Additional observations from a re-analysis of the deposited data

How the results depend on the processing

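The adjusted-p calls of edgeR depended on the tool. Against 0 transcripts, the DESeq2 Wald test called 456 in Wnt LOF EP 24 h, 84 in Control EP, 64 for the difference and 43 between left otocysts. limma on log2(TPM + 1) called 37 in Wnt LOF EP 24 h and 1 for the difference, limma on log2(TPM + 0.1) called 1 for the difference, and at least 10 counts in every library gave 1 in Wnt LOF EP 24 h. Leaving out each embryo gave 0 in each comparison. The DESeq2 Wald test moved AXIN2 (-0.77) and SFRP1 (-0.49) past the threshold in Wnt LOF EP 24 h. AXIN2, LGR5 and SFRP1 stayed below 0 there under each of the 12 alternatives, AXIN2 between -1.07 and -0.74. Without the replicate block DKK3 turned to 0.0015 in the difference, no gene passed an adjusted p of 0.05, and 470 transcripts had an unadjusted p under 0.05 in Wnt LOF EP 24 h.

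DKK3 turned to -0.19 with both TPM scales in Wnt LOF EP 24 h. There the median fold change of all transcripts was -0.23 (pseudocount 1) and -0.30 (0.1) in TPM, beside -0.02 in edgeR. Mean right-left ratios moved by more than 1 SD in TPM for AXIN2 (-1.08), DKK3 (-0.19) and SFRP1 (-0.80) in Wnt LOF EP 24 h and for LGR5 (-0.28) in Control EP, and in CPM of the library total for AXIN2 (-0.94). Without 1 embryo, values ranged from -0.73 to 0.13 for DKK1 and -0.28 to 0.17 for SFRP1 in Control EP, from -0.96 to 0.20 for DKK1 and -0.11 to 0.057 for DKK3 in the difference, and from -0.24 to 0.048 for LGR5, -0.041 to 0.18 for DKK3 and -0.17 to 0.20 for SFRP1 between left otocysts. The causes were not tested. With at least 10 counts in every library DKK1 could be fitted only between left otocysts. The 3 embryos per dataset and the counts of DKK1 set the limits.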
